A study of Mus musculus with 72 samples.

Results

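Liver RNA-seq libraries from conventionally housed, specific pathogen–free (SPF) mice were compared between animals that lacked the liver clock (LKO) and control animals (WT) over a whole day. LKO mice were male C57BL/6 mice (C57BL/6J in the study's methods) of the genotype Bmal1 fl/fl Albumin-Cre, and WT mice were male Bmal1 fl/fl mice of the same strain without Cre, so both genotypes carried the floxed allele and only LKO mice carried the Cre transgene. Livers were taken at ZT2, ZT6, ZT10, ZT14, ZT18 and ZT22 (hours after lights on in a light/dark cycle), with 3 mice per genotype and time, 1 library each. Of the 72 libraries of the series, 33 were used (17 WT and 16 LKO). The other SPF libraries were the 3 labelled LKO ZT14 replicate 2, LKO ZT18 replicate 1 and WT ZT14 replicate 3. They were left out because their expression contradicted their labels, so the choice used expression values, and the main counts are also given with all 36. The 36 germ-free (GF) libraries, 18 LKO and 18 WT, served as a separate measurement of the same genotypes. The labels give no age. Cre under the albumin promoter is known to act in hepatocytes, and other liver cells were not examined for it. Total counts ranged from 18337729 to 22076113 per library (median 19741898), and 14706 genes were tested.

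BMAL1, encoded by Arntl, pairs with CLOCK or NPAS2 and activates genes that carry E-box sequences. Among its targets are the PER and CRY repressors, which close the main feedback loop, the REV-ERB repressors (Nr1d1 and Nr1d2), which act on ROR elements in a second loop, and the PAR bZIP factors DBP, TEF and HLF, which bind D-boxes in many liver genes. In the liver, these loops time the expression of enzymes for xenobiotics, bile acids and lipids, and of secreted proteins.

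The deleted gene was examined first. Values are CPM (reads of a gene scaled to the size of the library) on one scale for all SPF libraries, and ± gives the SD between libraries. Arntl in WT liver was 37.9 ± 3.22 CPM at ZT22 and 1.35 ± 0.642 CPM at ZT10 (n = 3 each). In LKO liver it stayed between 9.52 ± 0.496 CPM at ZT10 and 15.1 ± 2.27 CPM at ZT22 (n = 3 each). Arntl was thus detected in LKO liver at every time, and the log2 difference, LKO minus WT, was 2.83 ± 0.32 (SE) at ZT10 and -1.35 ± 0.24 at ZT22 (adjusted p = 2.29e-07 and 0.000676, edgeR quasi-likelihood test). With ZT as a factor, which averages over the day, it was 0.08 ± 0.32 (adjusted p = 0.88). Counts of the whole gene do not separate transcripts with the deleted exons from those without, so the level of Arntl does not by itself measure the deletion. Of the libraries left out, the one labelled LKO ZT18 replicate 1 had 30.67 CPM of Arntl, inside the WT values at ZT18 and above the other LKO libraries, and the one labelled WT ZT14 replicate 3 had 2.229 CPM, below both other WT libraries at ZT14.

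Among the other clock activators, Npas2, the partner that can replace CLOCK, was the one called higher at every ZT. It had 0, 0.296 and 10.5 CPM in WT liver (lowest, median and highest of 17 libraries) and 15.1, 26.6 and 38.4 CPM in LKO liver (16 libraries). No LKO library used overlapped a WT library used. The left-out libraries labelled LKO ZT14 replicate 2 and LKO ZT18 replicate 1 held 0.2336 and 1.913 CPM, inside the WT range. The lack of overlap thus rests on leaving them out. The log2 fold change of Npas2 was 3.98 ± 0.40 with ZT as a factor (adjusted p = 1.35e-09). It ranged from 1.63 at ZT22 to 7.81 at ZT10, where WT liver averaged 0.0739 CPM and the fitted fold depends on the prior count. Clock, the usual partner of BMAL1, rose, with a log2 fold change of 0.39 ± 0.11 over the day and 1.28 ± 0.13 at ZT10. Rora and Arntl2 were not called (adjusted p = 0.829 and 0.443).

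Of 10 clock repressors tested, 5 fell and 2 rose. Cry1 rose by 1.76 ± 0.20 log2 units over the day (adjusted p = 2.64e-08). Its WT level moved between 6.92 ± 1.73 CPM at ZT6 and 52.7 ± 9.28 CPM at ZT18 (n = 3 each), while LKO liver held 63.3 ± 2.94 CPM or more at every time. Cry2 rose by 0.44 ± 0.10 (adjusted p = 0.000994). The REV-ERB genes fell. Nr1d1 had 0.798, 16.8 and 76.6 CPM in WT liver and 0.523, 3.66 and 11.6 CPM in LKO liver, with a log2 fold change of -2.34 ± 0.25 (adjusted p = 6.19e-09). Its difference was -3.63 ± 0.36 at ZT2 and -0.02 ± 0.64 at ZT18, where WT liver itself was at its low. Nr1d2 had 18.9, 63.6 and 144.6 CPM in WT and 8.40, 15.1 and 41.6 CPM in LKO liver and was the one repressor lower at every ZT, by 1.28 log2 units or more. Bhlhe41 and Ciart, which repress BMAL1-driven transcription, fell by 3.03 ± 0.29 and 2.85 ± 0.32 log2 units from low WT levels (highest WT library 5.82 and 13.8 CPM). Per3 fell by 1.06 ± 0.25 over the day, but its difference was -2.41 ± 0.27 at ZT10 and 1.19 ± 0.31 at ZT22 (adjusted p = 2.32e-07 and 0.0199). Per1, Per2 and Bhlhe40 were not called over the day (adjusted p = 0.253, 0.537 and 0.997), and Per2 was called at ZT22, where it was 1.31 ± 0.28 log2 units higher in LKO liver.

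Of the D-box factors, Dbp fell. It had 0.6, 6.73 and 72.3 CPM in WT liver and 1.58, 3.56 and 12.5 CPM in LKO liver, with a log2 fold change of -1.38 ± 0.31 (adjusted p = 0.000691). The fall was -2.73 ± 0.36 at ZT6, the time of its WT peak, and at ZT22 the difference was 1.46 ± 0.52 and did not pass the test (adjusted p = 0.125). Tef moved in both directions, by -1.14 ± 0.16 at ZT10 and 0.97 ± 0.16 at ZT22. Hlf and Nfil3, the repressor at D-boxes, were not called over the day (adjusted p = 0.127 and 0.232). In each of these 4 genes the LKO means of the 6 times spanned a narrower range than the WT means, for Hlf from 48.1 to 61.3 CPM against 45.4 to 79.7 CPM.

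**Figure D1:**
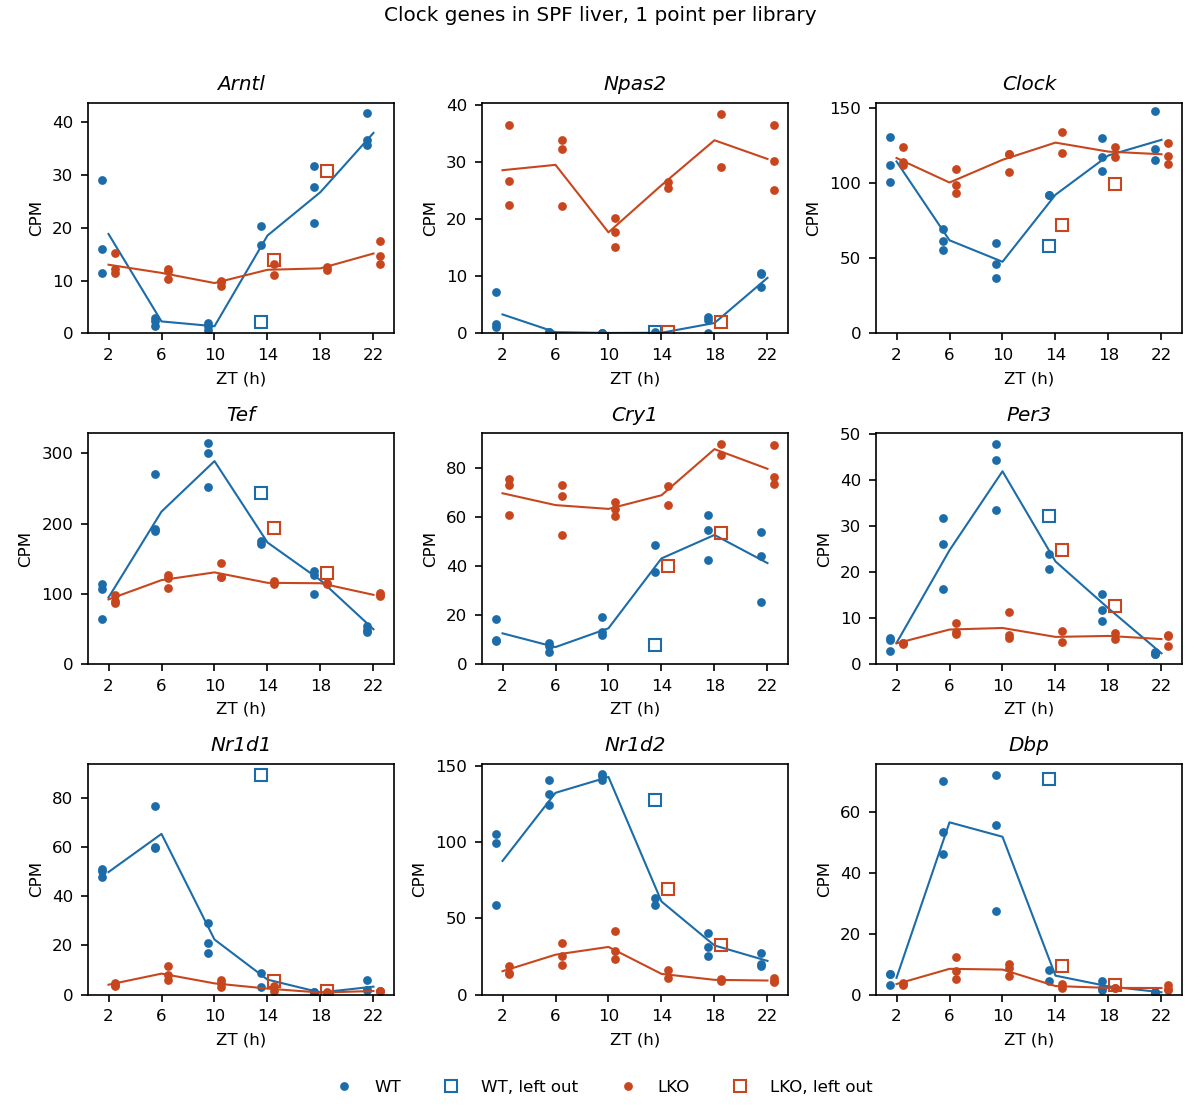
Each panel plots 1 clock gene in SPF liver, with the time of day (ZT, hours) on the x axis and CPM on the y axis. Filled points are libraries (WT blue, LKO red), lines join the means, and open squares are the 3 libraries left out. Npas2 is higher in every LKO library used. Nr1d2 and Dbp have WT peaks of up to 144.6 and 72.3 CPM and reach at most 41.6 and 12.5 CPM in the LKO libraries used. Both still varied over ZT within LKO liver (adjusted p = 0.000177 and 0.00377, edgeR quasi-likelihood test).

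The sequences through which these loops are known to act are shown for 4 of the clock genes described above. They were read from the RefSeq promoter table (GRCm38.p6, 250 bases before to 50 after a start), 5′ to 3′ on the gene's strand, with the motif in capitals. Per1 (chr11:69098756-69098815, + strand), Cry1 (chr10:85185082-85185141, - strand) and Tef (chr15:81802519-81802578, + strand) hold an E-box, CACGTG, and Arntl (chr7:113207501-113207560, + strand) holds a ROR element.
Per1: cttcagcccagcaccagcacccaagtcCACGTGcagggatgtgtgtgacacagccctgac
Cry1: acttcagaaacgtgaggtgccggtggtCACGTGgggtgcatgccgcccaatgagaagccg
Tef: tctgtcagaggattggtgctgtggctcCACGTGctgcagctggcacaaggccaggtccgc
Arntl: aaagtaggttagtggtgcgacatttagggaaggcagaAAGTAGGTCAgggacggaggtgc

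Over the whole transcriptome, 30.8% of the genes tested were called with ZT as a factor, 2280 higher and 2252 lower in LKO liver. Most shifts were small: the median size among called genes was 0.355 log2 units, and 280 higher and 336 lower genes reached 1 log2 unit. Tested at single times, the share of genes called was 7.83% at ZT2, 10.3% (ZT6) and 11.7% (ZT10), and 5.16%, 4.77% and 4.32% at the 3 later times. ZT14 and ZT18 had 2 libraries in 1 or both arms, and a count of calls at these times is not comparable with the others. Of the 14706 genes, 11617 were called at no time, 1688 at 1 time and 211 at all 6 times, always in the same direction: 112 were higher (0.762%) and 99 were lower (0.673%). In 87 of the 112 and 71 of the 99, the WT and LKO libraries did not overlap over all 33 libraries. Here and for the single genes below, a lack of overlap refers to these 33 libraries. The libraries that the rule removed for their expression are not counted in it. Over all genes tested, LKO libraries lay wholly above WT in 0.816% and wholly below in 0.612%. With all 36 libraries under their labels, 1932 higher and 1890 lower genes were called with ZT as a factor, but only 1 gene was called at every ZT, with 57 genes called at ZT14 and 1 at ZT18. The every-time list thus rests on leaving these libraries out. The libraries labelled LKO ZT14 replicate 2 and LKO ZT18 replicate 1 lay nearer the WT mean of their time than the LKO mean in 208 and 209 of them. The library labelled WT ZT14 replicate 3 lay nearer the WT mean in 169. These counts describe the libraries that the rule left out for their expression and are no separate support for the list. Without ZT14 and ZT18 altogether, 161 genes were higher and 139 lower at each of the 4 remaining times.

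The genes shifted at every ZT often varied over the day in the control. Of the 112 higher genes, 53 varied over ZT within WT liver and 10 within LKO liver, and of the 99 lower genes 37 and 7 did. Over all genes tested, 15.3% varied over ZT within WT and 4.01% within LKO liver. These counts come from separate tests within each genotype, of any difference among the times and not of a rhythm. The genes were chosen from the same libraries. Their median level was also higher, at 4.09 (higher genes) and 4.69 (lower genes) log2 CPM against 3.42 over all genes tested. The shares are thus not compared on equal terms. The difference between genotypes itself varied with ZT in 196 genes (1.33%), among them 24 of the 211. Sizes ran from 0.47 to 7.24 log2 units among the higher genes (median 1.69), with Cd81 nearest to no change, and from 0.43 to 5.78 among the lower genes (median -1.31), with Hsd17b4 nearest. Protein-coding genes made up 100 of the 112 and 96 of the 99.

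Among the genes shifted at every ZT, the largest rise was in Moxd1, a copper-dependent monooxygenase that is also a male-biased liver gene. It had 0, 0.177 and 4.41 CPM in WT liver and 8.13, 59.1 and 218.8 CPM in LKO liver, a log2 fold change of 7.24 ± 0.54 (adjusted p = 2.18e-12). LKO libraries varied widely among themselves but all exceeded the WT libraries used. The left-out library labelled WT ZT14 replicate 3 held 131 CPM of Moxd1, above the LKO median, so the lack of overlap rests on leaving it out. Lpl, lipoprotein lipase, which releases fatty acids from circulating triglycerides and is largely silent in adult liver, had 17.7, 37.3 and 66.2 CPM in WT and 585.5, 756.3 and 973.5 CPM in LKO liver. It was 4.38 ± 0.16 log2 units higher (adjusted p = 4.9e-20), with 3.81 at ZT22 and 5.52 at ZT14. The WT level dipped to 18.7 ± 1.39 CPM at ZT14 (n = 2), and the difference varied with ZT (adjusted p = 0.00983).

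Ntrk2, the receptor for brain-derived neurotrophic factor, had 0.28, 1.10 and 5.15 CPM in WT and 46.6, 60.7 and 121.5 CPM in LKO liver (log2 fold change 5.53 ± 0.23, adjusted p = 1.51e-18). Grk5, a kinase that desensitizes G protein–coupled receptors, had 3.99, 7.004 and 16.1 CPM in WT and 46.2, 93.7 and 133.2 CPM in LKO liver (3.59 ± 0.12, adjusted p = 1.8e-21). Both were separated in all 33 libraries. Prlr, the prolactin receptor, had 64.8, 89.2 and 144.7 CPM in WT and 174.8, 220.3 and 279.0 CPM in LKO liver (1.21 ± 0.09). Tox2, an HMG-box nuclear factor, went from 0.0551, 0.249 and 0.416 CPM to 7.99, 11.6 and 18.0 CPM, with a log2 fold change of 5.57 ± 0.14 (adjusted p = 5.48e-24). Nckap5 had at most 0.839 CPM in WT and at least 2.14 CPM in LKO liver (3.28 ± 0.14).

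Loxl4, a lysyl oxidase that cross-links collagen, had 0.498, 1.43 and 7.50 CPM in WT and 24.4, 46.1 and 70.6 CPM in LKO liver (4.63 ± 0.19). Its difference was smallest at ZT22, when WT liver reached 5.70 ± 1.75 CPM (n = 3). Slc34a2, a sodium-phosphate cotransporter, had 0.148, 1.04 and 3.07 CPM in WT and 14.7, 28.1 and 50.7 CPM in LKO liver (4.59 ± 0.26). Slc1a4, a transporter of neutral amino acids, rose by 1.41 ± 0.11, with no overlap between 7.399 CPM, the highest WT library, and 7.492 CPM, the lowest LKO library.

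Sult1e1, which sulfates estrogens, had 0.0487, 0.350 and 0.769 CPM in WT and 1.17, 4.33 and 28.2 CPM in LKO liver (4.34 ± 0.35, adjusted p = 1.05e-11). Cyp2c55, a cytochrome P450, had 5.72, 11.2 and 21.2 CPM in WT and 108.2, 183.2 and 256.1 CPM in LKO liver (3.91 ± 0.17). The Gstm genes are glutathione S-transferases of the mu class that lie near each other on chromosome 3. Of them Gstm3, Gstm2, Gstm6, Gstm1 and Gstm7 were higher at every ZT, by unlike amounts. Gstm3 had 10.2, 26.2 and 51.8 CPM in WT and 213.8, 276.5 and 593.4 CPM in LKO liver (3.40 ± 0.16), and Gstm2 had 14.8, 25.3 and 39.7 CPM and 138.2, 201.1 and 270.7 CPM (2.93 ± 0.11). Gstm6, Gstm1 and Gstm7 rose by 1.82, 1.23 and 1.05 log2 units. Mu-class genes are near-identical in places, and reads matching several genes were not counted, so the split among them is uncertain. Members of other classes went both ways. Gstp3 rose at every ZT by 1.29 log2 units, Gsta4 and Mgst3 fell at every ZT by 1.14 and 1.34 log2 units, and Gstt2 had 40.8, 74.7 and 113.3 CPM in WT and 9.93, 17.7 and 26.9 CPM in LKO liver (-2.10 ± 0.12, adjusted p = 5.52e-15).

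**Figure D2:**
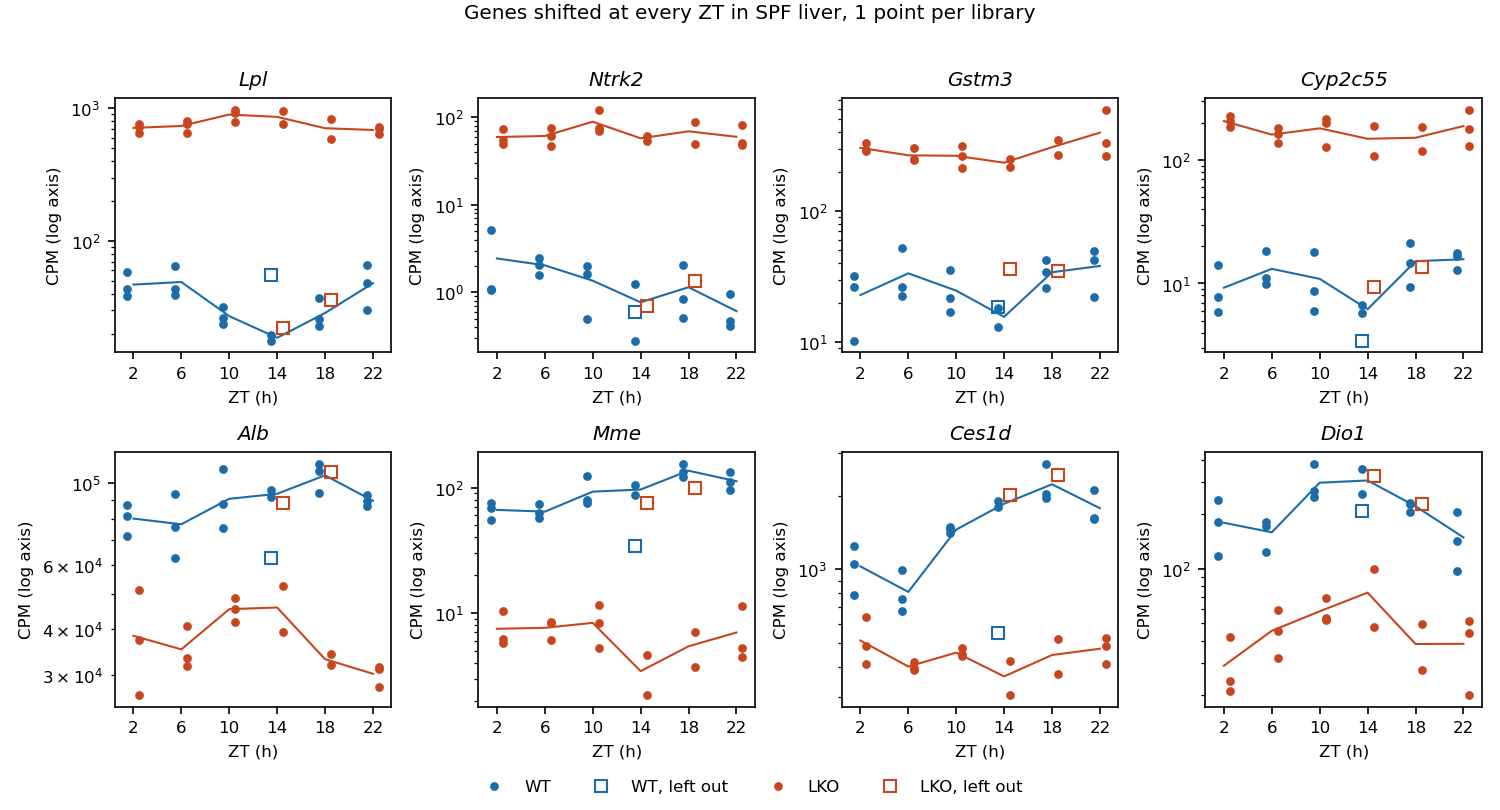
CPM (log axis) against ZT (hours) in SPF liver for 4 genes higher and 4 genes lower at every ZT, 1 point per library, with lines through the means of WT (blue) and LKO (red). The open red squares, libraries labelled LKO ZT14 replicate 2 and LKO ZT18 replicate 1, and the open blue square, WT ZT14 replicate 3, were left out of the lines and of the fit. For Lpl the filled points span 17.7 to 66.2 CPM in WT and 585.5 to 973.5 CPM in LKO liver.

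Among the named genes that were shifted at every ZT and had a mean of at least 1 log2 CPM, Mup17 and Acot3 had the largest falls. Mup17 belongs to the major urinary proteins, male-biased carriers of pheromones, and had 12.7, 205.6 and 534.2 CPM in WT and 0.911, 3.98 and 29.4 CPM in LKO liver (-5.09 ± 0.45, adjusted p = 7.3e-11). The ranges overlapped. Mup genes are near-identical copies, so the value for 1 of them is uncertain. Acot3, a peroxisomal acyl-CoA thioesterase, had 1.68, 6.87 and 18.2 CPM in WT and 0.0516, 0.323 and 0.806 CPM in LKO liver (-4.26 ± 0.29). Its fall was 2.50 log2 units at ZT2 and 5.96 at ZT14. Nat8, an acetyltransferase of the endoplasmic reticulum, had 8.91, 22.5 and 41.5 CPM in WT and 0.782, 1.496 and 2.34 CPM in LKO liver (-3.95 ± 0.16, adjusted p = 7.75e-19).

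Mme, the membrane peptidase neprilysin, had 54.9, 87.6 and 154.2 CPM in WT and 2.22, 6.18 and 11.5 CPM in LKO liver (-3.75 ± 0.18, adjusted p = 3.97e-17). Slc10a2, the sodium-dependent bile acid transporter, had 31.2, 60.9 and 123.0 CPM in WT and 3.68, 9.07 and 18.7 CPM in LKO liver (-2.49 ± 0.15). Both were separated over all 33 libraries. Serpine2, a protease inhibitor, fell by 2.26 ± 0.16 log2 units, and Col27a1, a fibrillar collagen, by 2.66 ± 0.21. In Col27a1 the WT level climbed from 20.9 ± 7.72 CPM at ZT6 (n = 3) to 113 ± 4.14 CPM at ZT14 (n = 2) while LKO liver stayed at 11.8 ± 3.9 CPM or less.

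Dio1, which activates thyroid hormone, had 97.3, 206.5 and 378.6 CPM in WT and 20.01, 46.4 and 99.6 CPM in LKO liver (-2.22 ± 0.15, adjusted p = 2.28e-13). Cyp17a1, a steroid hydroxylase, had 2.54, 6.96 and 17.7 CPM in WT and 0.232, 1.03 and 3.15 CPM in LKO liver (-2.63 ± 0.18). Aldh3a2, the fatty aldehyde dehydrogenase, had 389.3, 524.4 and 628.9 CPM in WT and 80.9, 135.7 and 170.4 CPM in LKO liver (-1.96 ± 0.09), with no overlap. Ces1d, a carboxylesterase, had 677.9, 1489 and 2706 CPM in WT and 305.4, 432.0 and 640.0 CPM in LKO liver (-1.66 ± 0.12), and its difference was -1.02 at ZT6 and -2.36 at ZT14. Rcan2, an inhibitor of calcineurin, Tpm2, a tropomyosin, and Zfp982, a zinc-finger gene, fell by 2.82 ± 0.15, 2.39 ± 0.11 and 2.82 ± 0.17, each with no overlap.

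Albumin itself was among the genes lower at every ZT. Alb, the most abundant plasma protein made by hepatocytes and the gene whose promoter drives Cre in LKO mice, had 62430, 89290 and 112700 CPM in WT and 26510, 35930 and 52500 CPM in LKO liver. The libraries did not overlap, and the log2 fold change was -1.24 ± 0.09 (adjusted p = 1.12e-12), between -0.99 at ZT10 and -1.66 at ZT18. Only LKO mice carry the Albumin-Cre transgene, so its presence and the loss of Arntl cannot be told apart in these groups.

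**Figure D3:**
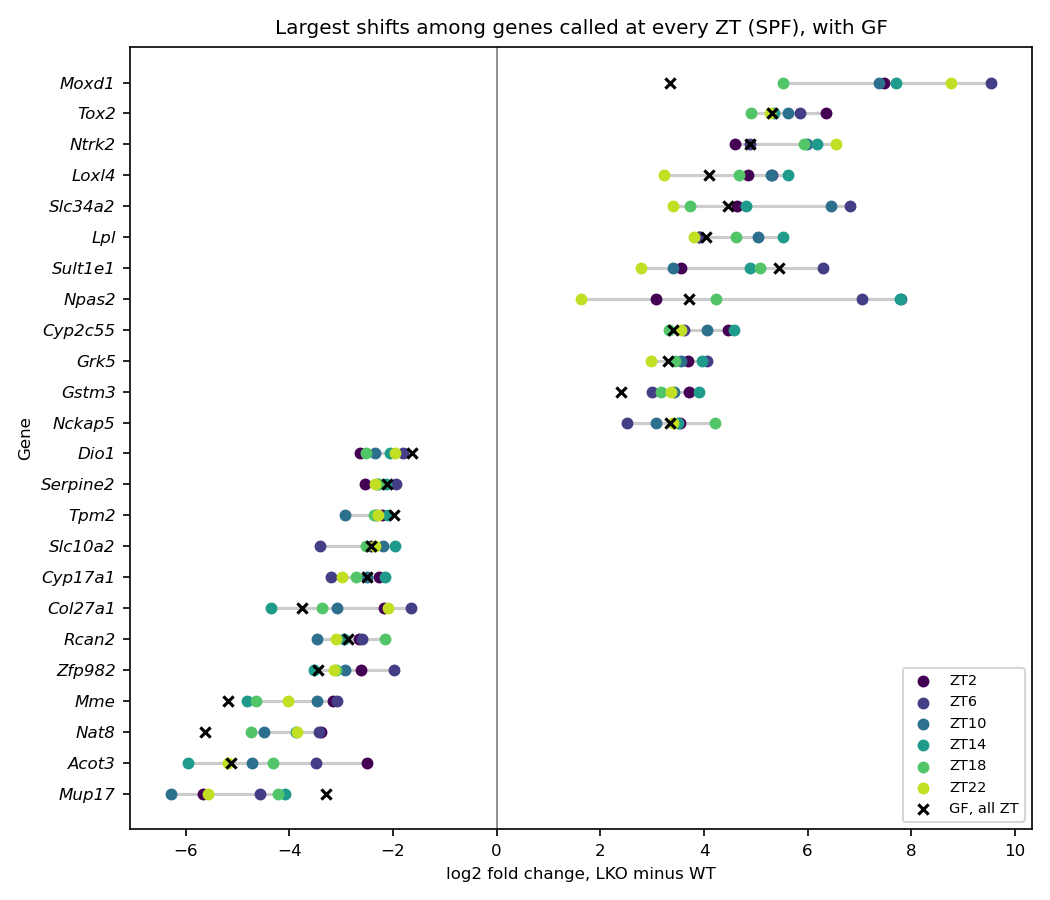
Log2 fold change, LKO minus WT, on the x axis for the 24 genes with the largest shifts among those called at every ZT (y axis), with 1 colored point per ZT in SPF liver and a cross for the fit over all ZT in GF liver. The genes were chosen for the same sign at all 6 times, which fixes that none has SPF points on both sides of 0. Npas2 has the widest spread over ZT among the risers, from 1.63 to 7.81. The GF value of Moxd1 is 3.34 against an SPF average of 7.24.

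Motifs in the promoters of the 211 genes were then counted, on both strands of the same 300-base RefSeq window, where a gene with several promoters counts once. A promoter was found for 89 of the 112 higher and 75 of the 99 lower genes. The D-box (TTANGTAA) was held by 10 of the 75 lower genes (13.3%) and 1 of the 89 higher genes (1.12%), beside 1.98% of 10832 tested genes and 2.72% of all 27025 genes in the table. Among all genes called lower with ZT as a factor, 54 of 1687 with a promoter held it (3.2%). Among those called higher, 30 of 1710 did (1.75%). The E-box (CACGTG, its own reverse complement) was held by 10 of the 75 (13.3%) and 8 of the 89 (8.99%), beside 11.4% of tested genes. The ROR element was held by 0 of both sets and by 0.203% of tested genes. These shares are descriptions, without a test, and a match does not show binding. The lower genes with a D-box were Alb, Ces1b, Ces1e, Ugt1a9, Sult1a1, Ak4, Gde1, As3mt, Slc22a26 and Gm19522, of which Ces1b and Ces1e are neighbors with related sequence. The higher one was Prlr.

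The D-boxes of 6 of the lower genes are shown in capitals. The D-box of Prlr, which rose, is not shown. Whether the motif bears on the direction of a shift was not tested. The windows are Alb (chr5:90460620-90460679, + strand), Ces1b (chr8:93079992-93080051, - strand), Ces1e (chr8:93229668-93229727, - strand), Ugt1a9 (chr1:88070650-88070709, + strand), Sult1a1 (chr7:126676583-126676642, - strand) and Ak4 (chr4:101419246-101419305, + strand). Alb holds a pair of D-boxes, 1 on each strand. Ces1e holds another D-box, at -156 from its start, outside the window shown.
Alb: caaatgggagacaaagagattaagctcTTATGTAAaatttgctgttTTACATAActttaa
Ces1b: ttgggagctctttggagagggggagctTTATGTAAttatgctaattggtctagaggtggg
Ces1e: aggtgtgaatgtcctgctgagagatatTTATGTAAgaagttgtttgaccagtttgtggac
Ugt1a9: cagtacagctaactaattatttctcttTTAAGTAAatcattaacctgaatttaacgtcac
Sult1a1: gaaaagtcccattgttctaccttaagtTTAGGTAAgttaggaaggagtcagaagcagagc
Ak4: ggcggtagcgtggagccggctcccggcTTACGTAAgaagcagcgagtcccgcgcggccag
These 6 genes, which encode albumin, carboxylesterases, a glucuronosyltransferase, a sulfotransferase and a mitochondrial adenylate kinase, fell over the day by 1.24, 2.13, 1.10, 2.14, 1.23 and 1.22 log2 units in the order shown.

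GF liver gave a separate measurement, since its 36 libraries played no part in choosing the genes. With ZT as a factor, 36.4% of 13806 genes were called between GF LKO and GF WT mice (2539 higher and 2486 lower). All 112 genes higher at every ZT in SPF mice were called higher in GF mice. Of the 99 lower genes, 98 were called lower, and the exception was Cyp39a1, a hydroxylase of bile acid synthesis, at -1.23 in SPF and -0.37 in GF liver (GF adjusted p = 0.268). The median log2 fold change was 1.65 in GF against 1.69 in SPF mice for the higher genes, and -1.57 against -1.31 for the lower ones.

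The size of the genotype difference was tested between SPF and GF mice over 69 libraries, and 57 of 14921 genes were called (0.382%). Among the 211 genes, 6 of the higher and 9 of the lower ones were called. Moxd1 was 7.24 ± 0.54 in SPF and 3.34 in GF liver (adjusted p of the difference 0.00369), and Gstm3 was 3.40 and 2.39 (adjusted p = 0.000595). Nat8, Mme and Ces1d fell further in GF liver, at -5.63, -5.18 and -2.79. Alb was -1.24 in SPF and -1.71 in GF liver (adjusted p = 0.0194).

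**Figure D4:**
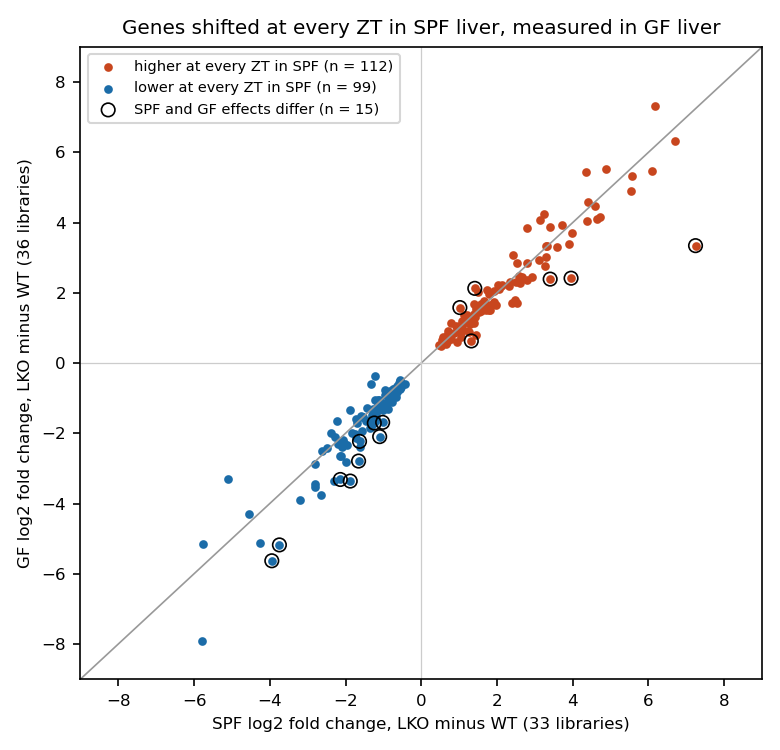
Log2 fold change, LKO minus WT, of the genes shifted at every ZT, in SPF liver on the x axis (33 libraries) and GF liver on the y axis (36 libraries), 1 point per gene, with the line of equal values. All 112 red points are above 0 and all 99 blue points below 0 on the y axis, and circles mark the 15 genes whose SPF and GF effects were called different.

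The test of whether the difference varied with ZT gave a list that shared 24 genes with the 211. Among the smallest p-values were those of Arntl, Tef, Clpx, Lgalsl, Mreg, Lingo4, Lonrf3, Fpgs and Lrfn3. Clpx, a subunit of the mitochondrial ClpXP protease, had 85.2 ± 7.75 CPM at ZT10 and 563 ± 101 CPM at ZT22 in WT liver, and 594 ± 59.9 and 556 ± 43.3 CPM in LKO liver (n = 3 each). Its log2 difference was 2.81 ± 0.18 at ZT10 and -0.04 ± 0.16 at ZT22. Mreg, a melanosome transport protein, and Fpgs, which adds glutamates to folate, followed the same course, at 1.78 ± 0.13 and 0.99 ± 0.09 at ZT6 and 0.01 ± 0.12 and -0.11 ± 0.09 at ZT22. In these 3 genes the WT mean was lowest at ZT10 and highest at ZT22, and every LKO mean lay above the WT mean of ZT10. Lgalsl and Lingo4 were on both lists: they were higher at every ZT, by 0.55 at ZT22 to 2.71 at ZT6 and by 0.72 at ZT18 to 3.43 at ZT2.

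Process lists are described next by how many of their tested members were called, beside 15.5% higher and 15.3% lower over all genes and a median log2 fold change of -0.005. Of 79 cytosolic ribosomal protein genes, 25 rose and 0 fell (median 0.138), led by Rps12 at 0.71 ± 0.09, Rpl31 at 0.61 ± 0.10 and Rpl10a at 0.41 ± 0.14. In GF liver 61 rose and 0 fell. Only reads with a single match were counted and these genes have many processed copies, so their levels are uncertain, and without ZT14 and ZT18 the count was 9. Of 52 ribosome biogenesis genes, 23 rose and 0 fell (median 0.165), among them Rrp12 (0.61 ± 0.10), Nat10, an RNA acetyltransferase (0.45 ± 0.07), Tsr1 (0.44 ± 0.10), and Polr1a and Polr1b of RNA polymerase I (both 0.22). In GF liver 12 rose and 0 fell. In both of these lists 0 members were lower at an unadjusted p under 0.05 by edgeR, and DESeq2 called 0 lower. Of 48 translation factors 13 rose and 6 fell. The falls included all 3 genes of the family that represses the cap-binding factor eIF4E, Eif4ebp1, Eif4ebp2 and Eif4ebp3, at -0.36, -0.22 and -0.55. Of 75 mitochondrial ribosomal proteins 11 rose and 3 fell.

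Of 75 nuclear genes of the respiratory chain, 23 fell and 1 rose (median -0.119). Cox7a1 had the largest fall, 1.34 ± 0.20, from a low level of 0.960 CPM in the median WT library, and Sdhd, a subunit of complex II, fell by 0.29 ± 0.05 from 309.9 CPM in the median WT to 251.2 CPM in the median LKO library. The other called members lay between Ndufa5 at -0.28 and Ndufv1 at -0.11, apart from Ndufv3 at 0.26. With all 36 libraries 5 fell, and in GF liver 43 of 75 fell. Of 39 proteasome genes 10 fell and 1 rose, including the immunoproteasome subunit Psmb10 (-0.47 ± 0.08) and the core subunit Psma6 (-0.30 ± 0.06). Of 41 autophagy and lysosome genes 15 fell and 4 rose. Bnip3, a mitophagy receptor, fell by 0.58 ± 0.08, Map1lc3a, an LC3 protein of the autophagosome, by 0.51 ± 0.06, and Ulk1, the initiating kinase, by 0.47. Ctsl, the lysosomal protease cathepsin L, went the other way, from 538.1, 671.7 and 774.8 CPM in WT to 846.0, 952.0 and 1166 CPM in LKO liver without overlap (0.56 ± 0.05).

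Stress genes were mixed. Of 30 heat shock chaperones 9 fell and 3 rose, with Hspb1 at -1.81 ± 0.19, Fkbp5, a cochaperone of the glucocorticoid receptor, at -0.92, and Hsp90aa1 at -0.35. Dnaja4 rose at every ZT, from 2.29, 3.01 and 6.79 CPM to 7.37, 10.2 and 14.0 CPM (1.57 ± 0.09). Of 35 genes of the endoplasmic reticulum stress response 6 fell and 2 rose. Trib3 and Asns, targets of ATF4, fell by 1.90 ± 0.20 and 1.83 ± 0.25 log2 units, and Herpud1 fell by 0.91 ± 0.22, while the other called members, led by Creld2 at -0.43, moved less. Of 51 secretory pathway genes 5 rose and 3 fell, fewer than in the background, among them Sar1b, a GTPase of vesicle budding, at -0.31, and Sec63 and Rpn2 of protein entry into the endoplasmic reticulum at 0.24 ± 0.03 and 0.26 ± 0.05.

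Of 44 genes of DNA replication and repair, 19 rose and 4 fell (median 0.147). The MCM helicase members Mcm6, Mcm4, Mcm5, Mcm2, Mcm3 and Mcm7 rose by 0.95, 0.78, 0.74, 0.67, 0.48 and 0.37 log2 units, and Pole, Gins2 and Cdt1, which act with them at origins or forks, by 0.77, 0.72 and 0.46. Mcm6 had 3.50, 4.48 and 7.25 CPM in WT and 3.66, 9.41 and 17.7 CPM in LKO liver, so the ranges overlapped. Mcm10 went against them, from 37.1, 74.4 and 161.5 CPM to 15.8, 24.6 and 88.7 CPM (-1.39 ± 0.15), as did Brca1 (-1.04 ± 0.14), Rrm2 (-0.73) and Tk1 (-0.36). In GF liver 22 rose and 5 fell. Of 43 cell cycle and mitosis genes 6 rose and 4 fell. Cdkn1a, the inhibitor p21, had 0.778, 5.25 and 68.2 CPM in WT and 15.9, 51.6 and 94.0 CPM in LKO liver (2.24 ± 0.46, adjusted p = 0.000248), with a difference that varied with ZT (adjusted p = 0.00849). Cdk6 was higher at every ZT (0.71), and Myc rose by 1.28 ± 0.46 but lost its call in 12 of the 33 fits that left out 1 library. Of 36 p53 and apoptosis genes 7 rose and 10 fell, with Bok at 0.71 ± 0.13 and Cidec, also a lipid droplet protein, at -1.18 ± 0.16.

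Of 37 acute phase proteins 15 fell and 5 rose (median -0.173). Saa1, a serum amyloid A protein induced in inflammation, had 15.4, 34.6 and 447.1 CPM in WT and 5.94, 9.91 and 24.6 CPM in LKO liver (-2.50 ± 0.37), and Saa2 and Orm3 fell by 2.49 ± 0.36 and 2.16 ± 0.29. Tested at single times, Saa1 and Saa2 were called at ZT2 and ZT6 and at no other time. The highest Saa1 value of the WT libraries used was at ZT6, and the library labelled LKO ZT14 replicate 2 held 475.0 CPM. WT ZT2 replicate 1 held 313.8 CPM of Saa1 and the highest value of Orm3 (17.56 CPM). The same library held the highest values of Cxcl1 and Mt1, which are described below. Saa1 and Saa2 are near-identical, which makes the split between them uncertain. Cp, ceruloplasmin, rose at every ZT by 0.61, and Itih3 and Apcs rose by 0.61 and 0.60. Complement genes split, with 11 of 30 lower and 6 higher: Cfd, factor D, fell by 3.92 ± 0.53 from a median of 0.894 CPM, C2 fell by 0.55 ± 0.05, and C9, a pore-forming component, rose from 554.3, 889.7 and 1254 CPM to 1276, 1609 and 2478 CPM with no overlap (0.94 ± 0.10). Coagulation genes, with 5 of 33 higher and 6 lower, were near the background, with Plg, plasminogen, at 0.43 ± 0.06.

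Of 22 genes of MHC class I and antigen processing, 11 fell and 0 rose (median -0.245), and in GF liver 16 fell and 0 rose. Nlrc5, the transactivator of class I genes, fell by 0.77 ± 0.11 and H2-Q7 by 0.85 ± 0.12, and the classical genes H2-K1 and H2-D1 fell by 0.40 and 0.34. H2 genes share sequence, so single members are uncertain. The highest WT values of Nlrc5 and H2-Q7 were in WT ZT6 replicate 3, at 46.14 and 41.69 CPM against WT medians of 16.91 and 21.41 CPM. Both calls held in all 33 fits that left out 1 library. Of 10 class II genes 0 were called in either direction by edgeR (median -0.336), with 4 lower and 0 higher at an unadjusted p under 0.05, and DESeq2 called 1 lower. In GF liver 7 of 9 were called lower. Of 28 Toll-like receptor and NF-kB genes 7 fell and 0 rose, with Cxcl1, a neutrophil chemokine, at -1.96 ± 0.37 and Tlr5, the flagellin receptor, at -0.91 ± 0.11. Cxcl1 had 63.2 CPM in 1 WT library at ZT2 and a WT median of 4.04 CPM. Of 41 interferon-stimulated genes 4 rose and 2 fell, below the background, with Rsad2 at 0.88 ± 0.13.

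These immune values stood beside shifts in the markers of other liver cells. Of 16 markers of Kupffer cells and macrophages, 9 fell and 0 rose (median -0.242). Their summed level was 606 to 1330 CPM in WT (median 802) and 607 to 809 CPM in LKO liver (median 686). Among the called markers Lyz2, Cd5l and Timd4 had the largest falls, at -0.45 ± 0.11, -0.36 ± 0.09 and -0.34 ± 0.11, and Marco, at -0.72 ± 0.37, was not called (adjusted p = 0.147). The highest WT values of Lyz2, Cd5l and Timd4 were all in WT ZT6 replicate 3 (119.9, 199.5 and 19.98 CPM). The calls for Lyz2, Cd5l and Timd4 held in all 33 fits that left out 1 library. Of 16 sinusoidal endothelial markers 4 fell and 1 rose (sum 504 to 683 CPM in WT and 407 to 704 CPM in LKO), and of 16 stellate cell markers 2 rose and 1 fell (426 to 657 and 467 to 719 CPM). Of 14 T and NK cell markers tested 3 fell: Gzma fell by 1.96 ± 0.43, but by 1.21 without WT ZT6 replicate 3, which held 9.03 CPM against a WT median of 0.436, and the call for Nkg7 was lost without it. Of 10 B cell markers 0 were called by edgeR, 0 at an unadjusted p under 0.05 and 0 by DESeq2, 1 of 5 neutrophil markers fell, and 1 of 7 erythroid markers rose and 1 fell. Of 12 cholangiocyte markers 3 rose and 2 fell, with the sum at 54.5 to 132 CPM in WT and 85.7 to 167 CPM in LKO liver and Sox9 at 1.31 ± 0.13. Cftr and Cldn7 stayed under 1 CPM in all libraries, and 12 of 14 markers of pancreas and gut did so as well. Fewer cells of a type and less RNA per cell cannot be told apart in bulk tissue, and the part of these cells in the immune results was not tested.

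Of 12 hepatocyte markers 5 fell and 1 rose (median -0.083), and 0 were under 1 CPM in all libraries. That floor is a weak check of the tissue label, since the markers are abundant in liver. Their sum was 106000 to 167000 CPM in WT and 64800 to 103000 CPM in LKO liver, a sum in which Alb is the largest term. Fabp1, the liver fatty acid–binding protein, also fell without overlap (4258 to 9067 CPM in WT, 1769 to 4150 CPM in LKO, -0.90 ± 0.10). Hnf4a fell by 0.21 and Asgr1 rose by 0.14. Among 51 hepatocyte transcription factors, 21 fell and 7 rose (median -0.110). The xenobiotic receptors Nr1i3 (CAR) and Nr1i2 (PXR) fell by 0.81 and 0.43, Ppara, the fatty acid–sensing receptor, by 0.70, Esr1, the estrogen receptor, by 0.94 ± 0.16, and Klf10 by 1.16 ± 0.21. Ppard, another lipid-sensing receptor, rose from 3.50, 7.31 and 28.1 CPM to 20.3, 37.9 and 59.7 CPM (2.10 ± 0.18, adjusted p = 3.91e-11).

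Sex-biased genes were affected on both sides in these males. Of 35 male-biased genes 14 rose and 10 fell (median -0.034), from Moxd1 at 7.24 and Serpina12 at 2.10 ± 0.14 to Mup17 at -5.09. Of 34 female-biased genes 18 fell and 7 rose (median -0.368). Slc22a26, an organic anion transporter with at most 1.77 CPM in WT, fell by 4.55 ± 0.30, Acot3 by 4.26 and Cyp2b9 by 3.06 ± 0.50, whereas Ntrk2, Lpl and Sult1e1 rose by over 4 log2 units. Of 20 genes of the growth hormone axis, which sets much of this bias, 5 rose and 1 fell, with Stat5a at 0.34, Stat5b at 0.32 and Socs2 at 0.88 ± 0.34. The call for Socs2 was lost in 20 of the 33 fits that left out 1 library. Gh, the growth hormone gene itself, was outside this list and had the highest log2 fold change of all genes tested, at 7.3. What its reads come from was not tested.

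Genes of drug handling moved both ways. Of 41 P450 genes of xenobiotic metabolism 15 rose and 10 fell, from Cyp2c55 at 3.91 and Cyp2b10 at 1.80 down to Cyp2a5, with 105.7, 423.9 and 686.6 CPM in WT and 47.8, 78.01 and 109.4 CPM in LKO liver (-2.15 ± 0.19). Por, the reductase that supplies electrons to all microsomal P450s, fell by 1.29, and Alas1, the first enzyme of heme synthesis, by 0.83 ± 0.14. Of 24 glutathione S-transferases 8 rose and 9 fell, and of 30 glucuronosyltransferases and sulfotransferases 10 rose and 10 fell. Ugt1a9 had 14.3, 44.9 and 70.2 CPM in WT and 4.90, 10.0 and 15.2 CPM in LKO liver (-2.14 ± 0.19). Ugt1a genes share their last exons and reads assigned to several genes were dropped, so these values rest on the first exons. Of 32 hepatic drug and bile transporters 15 fell and 6 rose. The efflux pumps Abcb1a and Abcb1b fell by 2.05 ± 0.20 and 1.33, the exporter Slc47a1 by 1.82 at every ZT, and the sterol pair Abcg5 and Abcg8 rose by 0.55 and 0.44. Of 15 genes of heme synthesis and breakdown 6 fell and 3 rose. Of 33 genes of glutathione and NRF2 defense 11 fell and 1 rose.

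**Figure D5:**
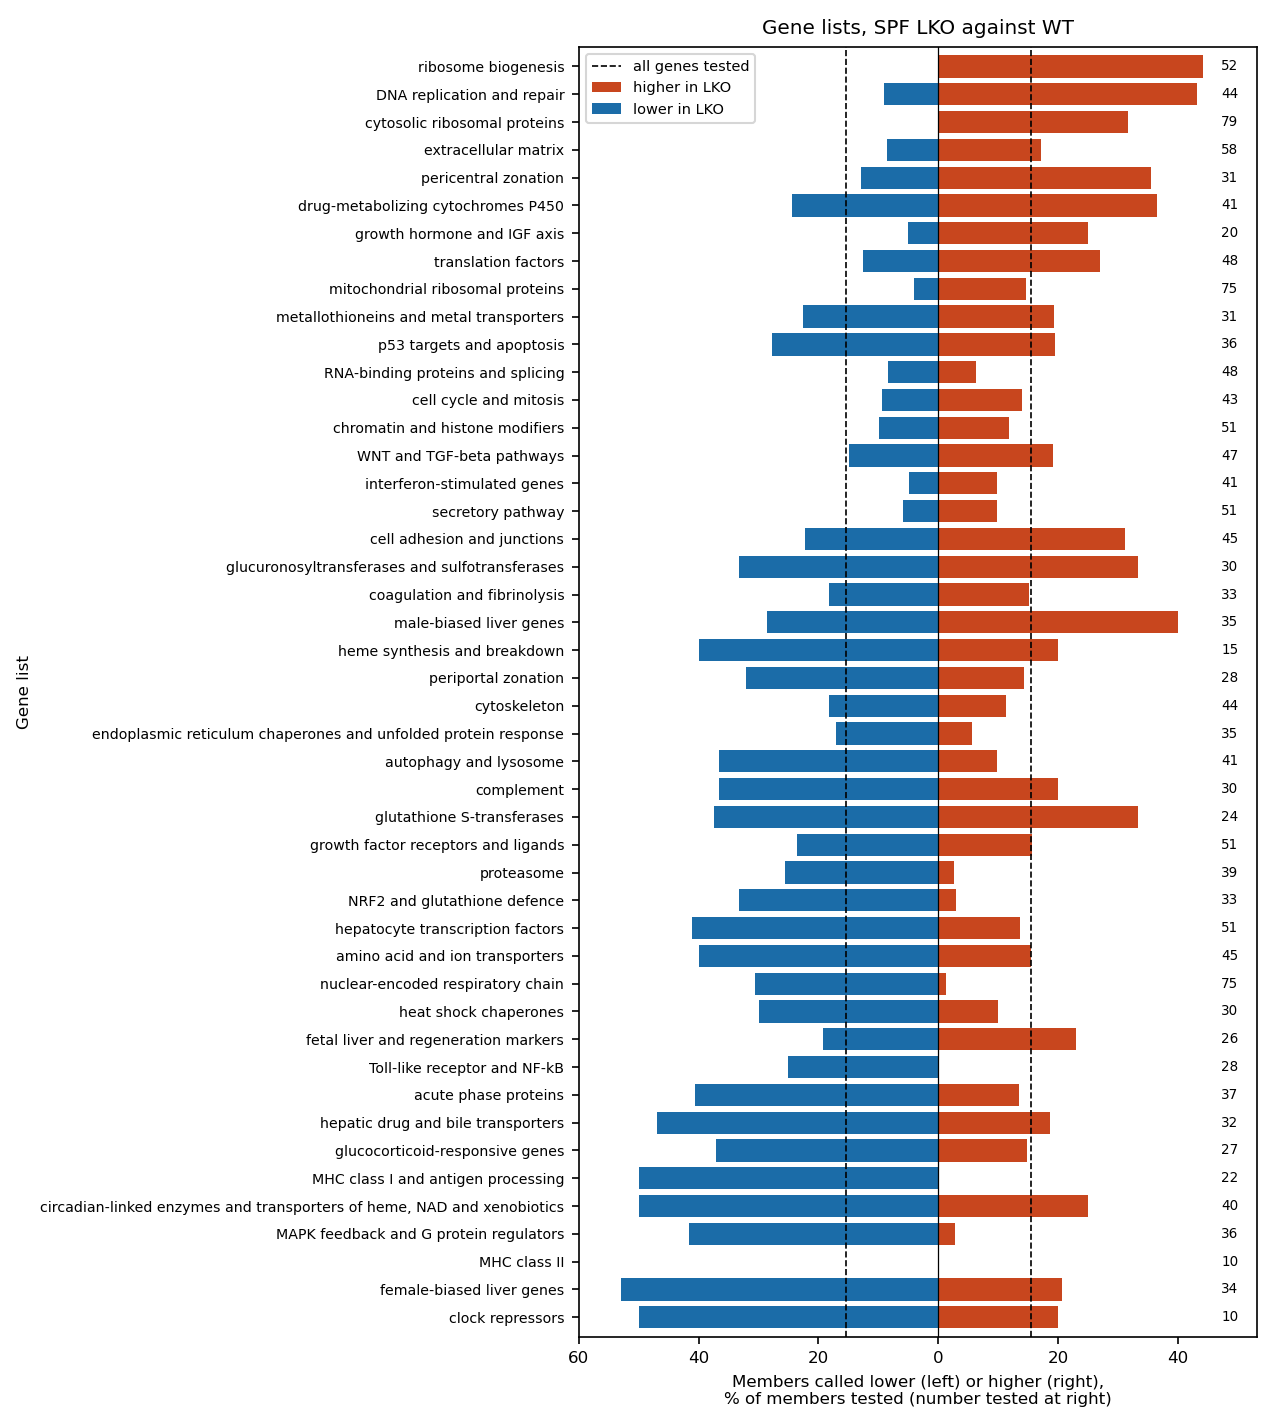
Share of the tested members of each process list called lower (blue, left) or higher (red, right) in SPF LKO liver, in %, with lists ordered by median log2 fold change and the number tested at the right. Dashed lines mark the shares over all genes tested, 15.3% lower and 15.5% higher; ribosome biogenesis, with 23 of 52 genes higher and 0 lower, is at the top of the lists with at least 10 genes tested, which are the ones drawn.

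Of 36 genes of MAPK feedback and G protein regulation, 15 fell and 1 rose (median -0.321), and in GF liver 6 fell and 0 rose. Rgs16, a brake on G protein signaling, had 1.41, 22.1 and 117.5 CPM in WT and 0, 0.294 and 5.79 CPM in LKO liver (-5.13 ± 0.51, adjusted p = 1.15e-09). The immediate-early genes Egr1, Fos, Atf3 and Junb fell by 1.18, 1.06, 1.004 and 0.59. With all 36 libraries 8 of the 36 fell. Of 51 growth factor receptors and ligands 12 fell and 8 rose, with Lepr, the leptin receptor, at -1.05 ± 0.20, and the hormones Fgf21, Gdf15 and Angptl4 at -0.90, -0.84 and -1.04. Of 47 WNT and TGF-beta genes 9 rose and 7 fell, with Lrp5, a WNT coreceptor, at 0.78 ± 0.09.

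Of 27 glucocorticoid-responsive genes 10 fell and 4 rose (median -0.245). The metallothionein Mt1 had 1.85, 17.9 and 201.8 CPM in WT and 1.93, 5.47 and 24.0 CPM in LKO liver (-1.73 ± 0.49), and Tat, tyrosine aminotransferase, fell by 0.53 ± 0.14. Pdk4, a kinase that blocks pyruvate dehydrogenase, rose by 1.74 ± 0.22 and Irs2, an insulin receptor substrate, by 1.22. In GF liver 5 fell and 4 rose, and Mt1 was -0.13 (GF adjusted p = 0.751). With all 36 SPF libraries 5 fell. Of 31 metallothionein and metal transport genes 7 fell and 6 rose, with Slc39a5, a zinc importer, at -3.79 ± 0.36 from at most 1.12 CPM in WT.

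Genes of liver zonation moved both ways. Of 31 pericentral genes 11 rose and 4 fell, but 4 of the risers, the Gstm genes, are the neighbors described above, and Cyp2a5 fell. Of 28 periportal genes 9 fell and 4 rose, with Cyp17a1 and Alb the largest falls and Agxt, an enzyme of glyoxylate removal, higher at every ZT, from 168.6, 255.4 and 352.3 CPM to 381.6, 483.8 and 560.2 CPM (0.92 ± 0.07). In GF liver the pericentral list held 9 higher and 9 lower. Of 26 fetal and regeneration markers 6 rose and 5 fell, among them Defb1 at 2.79 ± 0.21, Meg3 at -1.74 ± 0.34 and Lpl.

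Structural genes were mixed. Of 58 extracellular matrix genes 10 rose and 5 fell, and Loxl4 and Spon2 rose and Mme, Col27a1 and Col15a1 fell at every ZT. Of 45 adhesion and junction genes 14 rose and 10 fell. Ceacam2 had at most 0.275 CPM in WT and 0.671, 2.17 and 3.10 CPM in LKO liver (4.42 ± 0.30), and the tight junction genes Cldn1 and Tjp3 rose by 0.68 and 0.92. Of 44 cytoskeletal genes 5 rose and 8 fell, with Tuba8, an alpha tubulin, at 2.41 ± 0.15 and Tpm2 at -2.39. Amino acid and ion transporters fell in 18 and rose in 7 of 45 cases, with Aqp4, a water channel, at -1.505 ± 0.17. Lists near or under the background were RNA-binding proteins and splicing (3 of 48 higher, 4 lower) and chromatin (6 of 51 higher, 5 lower), in which the DNA methyltransferase Dnmt3b, with 0.555, 1.41 and 6.95 CPM in WT and 3.85, 6.91 and 8.34 CPM in LKO liver, rose by 1.83 ± 0.21 and Noct, a clock-linked nuclease, fell by 1.52 ± 0.28.

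Known clock-output genes of heme, NAD and xenobiotic handling had 12 of 40 called for variation with ZT, beside 1.33% of all genes tested. This was the largest number of any list, but the clock lists had larger shares. These were 4 of 6 activators, 5 of 10 repressors, and 3 of 4 PAR bZIP factors with Nfil3. The members were picked as clock-linked genes, so their time dependence is no separate result. Of the 40 clock-output genes, 20 fell and 10 rose (median -0.260). Nampt and Naprt, which make NAD, fell by 0.71 and 0.37, Gys2, liver glycogen synthase, by 1.07, and Upp2, a uridine phosphorylase, by 1.11, and Cbs, of cysteine synthesis, rose by 0.71.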

How the data were processed

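Liver RNA of 72 mice was sequenced, and 33 SPF libraries (17 WT, 16 LKO) were compared. Per the labels and the study's methods, the authors aligned single-end reads of stranded mRNA libraries to mm10 with STAR 2.6.1b and assigned them to Ensembl genes with featureCounts 2.0.0, without using strand and without reads matching several places or genes. The deposited values are raw counts. No normalized column was used, and 55480 of 55573 genes were given a symbol through GENCODE vM21.

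From the counts, genes kept by filterByExpr on the 12 groups were tested with edgeR 4.0.16 (R 4.3.3), using TMM scaling, quasi-likelihood F tests and Benjamini-Hochberg adjustment over all genes tested. The fits were genotype with ZT as a factor, 12 group means with a contrast at each ZT, the genotype by ZT interaction, and the genotype by microbial state interaction. A gene was called at an adjusted p under 0.05, and as shifted at every ZT when called with the same sign at all 6 times. SE is the fold change divided by the root of F. DESeq2 1.42.0 was an alternative, and a replicate block and fits leaving out each library were others. The fit was tested on simulated data. Overlapping genes counted without strand, such as Hectd2 and Hectd2os, cannot be told apart. A few genes that the rule below names are not reported here.

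Named genes were the clock genes, the 12 largest increases and decreases among genes shifted at every ZT with a mean of at least 1 log2 CPM and no predicted gene or pseudogene, the 6 largest of each direction among genes without overlap, up to 3 called members with the largest change in each list, and the 10 most dependent on ZT. Other list members were chosen after their values were seen. The lists, and the rule for the libraries, were chosen with earlier results of these data known. Each library is 1 mouse per the labels, and p-values measure the spread between these libraries only. Depth was 18337729 to 22076113 counts per library.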

Additional observations from a re-analysis of the deposited data

Results flagged for a closer look

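In 3 clock genes the genotype difference was called in both directions at single times and varied with ZT by edgeR's interaction test: Arntl (adjusted p = 5.44e-08), Tef (adjusted p = 1.04e-05) and Per3 (adjusted p = 2e-05). For Arntl the log2 difference was 2.83 at ZT10 and -1.35 at ZT22, for Tef -1.14 and 0.97, and for Per3 -2.41 and 1.19.

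In 9 named genes the genotype effect differed between GF and SPF mice by the interaction test of edgeR. The GF minus SPF difference in log2 fold change was -3.9 for Moxd1 (adjusted p = 0.00369) and -1.01 for Gstm3 (adjusted p = 0.000595), both higher in LKO liver of both states. It was -1.68 for Nat8 (adjusted p = 4.12e-05), -1.43 for Mme (adjusted p = 0.000391), -1.17 for Ugt1a9 (adjusted p = 0.0156), -1.13 for Ces1d (adjusted p = 0.000777) and -0.462 for Alb (adjusted p = 0.0194), all of which fell in SPF liver. It was -1.26 for the water channel gene Aqp4 (adjusted p = 0.00365) and -1.06 for Me1, malic enzyme (adjusted p = 0.00052). What these differences come from was not tested.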

How the results depend on the processing

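The counts with ZT as a factor ran from 2134 to 2336 higher and 2116 to 2278 lower when each library was left out, and were 280 and 336 with a size of at least 1. With all 36 libraries 599 genes were called at ZT2, 57 at ZT14, 1 at ZT18 and 240 at ZT22, 1 higher and 0 lower at every ZT (1 of the 211 kept), and 44 varied with ZT. With the library labelled LKO ZT14 replicate 2 put back, the counts were 56 at ZT14, 380 at ZT22, 33 and 0 at every ZT and 63 varying. With LKO ZT18 replicate 1 put back they were 93 at ZT18 and 53 and 2 at every ZT, and with WT ZT14 replicate 3 put back 108 varied. Without a filter on low counts 1091 were called at ZT22, 153 were lower at every ZT and 1297 varied. DESeq2 gave 464 varying and kept 210 of the 211. Other rules for every ZT gave 1550 higher and 1518 lower (called over the day, same sign at 6 ZT), 243 and 214 (no overlap within each ZT) and 69 and 47 (a size of at least 1 at each). The SPF–GF difference was called in 89 genes with all 72 libraries and 87 with DESeq2, and the GF counts of 112 and 98 were the same in both alternatives run. The causes were not tested.

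Of 15 pairs of WT and LKO libraries with the same time and replicate number, 6 correlated over 0.1 (-0.146 to 0.301). Pairs of unlike number were not set beside them, so these values do not show whether replicate numbers pair the samples. A replicate block gave 227 at ZT14, 70 higher and 44 lower at every ZT (110 of 211 kept) and 110 varying.

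Leaving out 1 library gave 623 to 1200 genes at ZT2, 989 to 1554 at ZT6, 1146 to 1790 at ZT10, 368 to 777 at ZT14, 277 to 740 at ZT18, 404 to 688 at ZT22, 89 to 116 higher and 63 to 101 lower at every ZT, and 130 to 203 varying. The counts moved by over 1.5 times without WT ZT2 replicate 1 (623), LKO ZT2 replicates 1 and 2 (715 and 750), LKO ZT6 replicates 2 and 3 (989 and 992), LKO ZT10 replicate 1 (1146, and 130 varying), WT ZT14 replicates 1 and 2 (476 and 380), LKO ZT14 replicate 1 (368), LKO ZT18 replicates 2 and 3 (277 and 449) and WT ZT22 replicate 1 (404). Genes lower at every ZT numbered 65 without LKO ZT14 replicate 3 and 63 without LKO ZT18 replicate 2. The single library left in an arm there is assumed to vary like the others.

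Of 170 called named genes 158 stayed called in all 33 such fits. Reversals were confined to uncalled genes. Bhlhe40 was 0.001838 without the filter, 0.09378 without ZT14 and ZT18, 0.004786 and 0.01176 with WT ZT14 replicate 3 or LKO ZT18 replicate 1 put back and above 0 in 14 fits leaving out 1 library. Without a ZT term Arntl was -0.5253 and Per2 -0.08502. Over all 33 fits leaving out 1 library, Arntl ran from -0.05269 to 0.1967 (below 0 in 6), Rora from -0.03424 to 0.00662 (above 0 in 1) and Bhlhe40 from -0.04081 to 0.06459.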

Other observations

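Genes encoded by the mitochondrial genome were looked at after values were seen. Of 23 tested, 15 were lower in LKO liver and 0 higher by edgeR, beside 15.3% lower over all genes tested. Only 7 protein-coding genes of this genome entered the test. All 7 fell, with log2 fold changes from -0.511 to -0.272 (median -0.389). In GF liver the same 7 fell.

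Genes shifted at every ZT often had a neighbor on the same list. Within 200000 bases, 47 of the 211 lay in 20 runs, such as 5 of the Gstm genes on chromosome 3, Ces1b, Ces1d and Ces1e on chromosome 8, Acot4 and Acot3 on chromosome 12 and Tox2 with Gm11454 on chromosome 2. On chromosome 10, Rdh9 and Rdh16 fell beside Sdr9c7, which rose by 1.41 log2 units. Within 5 Mb of Arntl, 20 of 56 tested genes were called and 0 at every ZT, beside 30.8% and 1.43% over all genes tested. Some runs hold near-identical or overlapping genes, and no share expected for such runs was computed.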
